A study of Homo sapiens with 6 samples.

Results

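The 9 genes described here are modulators of the Wnt pathway: the secreted antagonists SFRP1, DKK1, DKK3 and NOTUM, the ligands WNT5A and WNT7B, and the negative feedback genes AXIN2, RNF43 and ZNRF3. They were taken by gene name from a table of 26485 genes, and they were chosen by their levels (TPM, transcript abundance scaled to length and library total) in these same 6 libraries. Their levels and differences are therefore given as a description, with no test. Of the 9 genes, 7 reached 1 TPM in at least 2 libraries and 2, AXIN2 and RNF43, did not.

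RNA was sequenced from PC9-AMG, PC9-BrM4 and PC9 cells, with 2 libraries for each line. PC9 is a human lung adenocarcinoma cell line with an activating EGFR mutation, PC9-BrM4 is known as a brain-metastatic derivative of it, and the labels name PC9-AMG without describing how the line was made. All 3 lines were cultured in MGS, which the labels do not expand and which is known of the study as a culture with mouse glial cells on a soft substrate, so no culture without MGS enters any comparison. The submitters' names for the libraries hold the word mix, which the labels do not explain, so whether RNA of other cells in the culture is included is not known. Separate cultures are not stated for the libraries of a line, so each SD (n = 2) and each p-value here covers the spread among these libraries alone, which may be technical.

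Wnt ligands are secreted proteins that bind Frizzled receptors with the co-receptors LRP5 and LRP6, which keeps β-catenin from being degraded and lets it act with TCF/LEF factors in the nucleus, while other ligands act through receptors such as ROR1 without β-catenin. Secreted antagonists bind the ligands or the co-receptors, and several target genes of the pathway, among them AXIN2, RNF43, ZNRF3, NOTUM and DKK1, encode inhibitors that feed back on it. The pathway is known for its part in lung development and in lung adenocarcinoma, where DKK1 has been studied in relation to metastasis.

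The libraries of a line correlated at a Pearson r of 0.986 to 0.99 across the 14627 genes that reached 1 TPM in at least 2 libraries, and libraries of different lines at 0.967 to 0.981. Each library held between 13848 and 14171 genes at 1 TPM or more. The epithelial markers EPCAM, KRT7, KRT8, KRT18 and CDH1 were present in every library but not level between the lines. KRT7 and KRT18 were lower in PC9-BrM4 than in PC9 (-0.63, adjusted p = 0.00034, and -0.61, adjusted p = 0.000206, in the limma fit described with the pathway genes). In PC9-AMG against PC9-BrM4 the markers went both ways in that fit. CDH1 and EPCAM were lower (-0.80, adjusted p = 0.00246, and -0.31, adjusted p = 0.0332), and KRT18 and KRT7 were higher (0.60, adjusted p = 0.00028, and 0.32, adjusted p = 0.0122). KRT7 was also lower in PC9-AMG than in PC9 (-0.30, adjusted p = 0.0338). By contrast, the lung markers NKX2-1, NAPSA and SFTPB reached at most 1.69 TPM. Of 8 markers each, 6 astrocyte, 7 microglia and 7 fibroblast genes stayed under 1 TPM in every library, and GFAP, S100B and FABP7 (astrocytes), CX3CR1, P2RY12 and TMEM119 (microglia), MOG and OLIG2 (oligodendrocytes) and LUM and THY1 (fibroblasts) were listed at 0 throughout. These are human genes, whereas the glial cells known of the culture are from mouse. The low values therefore cannot show whether RNA of those cells is included. Other markers were present: ALDH1L1 (astrocytes) at 31.2 TPM in PC9-AMG, 19.1 TPM in PC9-BrM4 and 22.5 TPM in PC9, and CSF1R (microglia), MBP (oligodendrocytes) and COL1A1 (fibroblasts) at 6.81 TPM or more in every library. SLC1A3 (astrocytes) was at 0.506 ± 0.206 TPM in PC9-AMG and 2.78 ± 0.931 TPM in PC9-BrM4 and was listed at 0 in PC9. It was called higher in PC9-BrM4 than in PC9 (adjusted p = 0.00178 in the limma fit). It reached 1 TPM only in the PC9-BrM4 libraries and was tested through them alone, so it had to stand above PC9. The astrocyte markers summed to 30.3 to 34.0 TPM in PC9-AMG, 20.7 to 23.5 TPM in PC9-BrM4 and 22.4 to 23.7 TPM in PC9, and the part of such cells in the results was not tested. In these bulk libraries, fewer cells of a type and less RNA per cell cannot be told apart.

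SFRP1 showed the largest differences of the 9 genes on the log2(TPM + 1) scale. It encodes secreted frizzled-related protein 1, which carries a Frizzled-like domain and binds Wnt ligands outside the cell, and it lies on chromosome 8 at 41261957 to 41309471 (hg38, minus strand), with 3 exons in its longest coding transcript. SFRP1 was at 5.30 and 4.35 TPM in PC9-AMG, at 55.5 and 45.1 TPM in PC9-BrM4, and at 12.3 and 11.9 TPM in PC9. Both PC9-BrM4 libraries were the highest and both PC9-AMG libraries the lowest, and no 2 lines overlapped. The mean level in PC9-BrM4 was 4.14 times that in PC9, a difference of 1.96 between the means on that scale, which understates the change of low genes. The mean in PC9-AMG was 0.398 times that in PC9 (-1.18 on that scale) and 0.096 times that in PC9-BrM4 (-3.13). Across 17 other ways of processing or leaving out a library, these differences stayed within 1.81 to 2.1, -1.32 to -0.97 and -3.35 to -2.79. Several of the 17 cannot move the difference of a single gene, here or for the rest of the 9. These are the filters, the replicate block, fitting only the libraries compared and leaving out a library of the third line. Among the genes annotated over SFRP1 are AC104393.1 and MIR548AO, and whether strand was used in counting is not given in the sources used here, so reads of overlapping genes may not be fully separated.

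Read coverage of SFRP1, which the deposited tables give as reads per base, was 4.36 and 3.26 in PC9-AMG, 35.3 and 27.3 in PC9-BrM4 and 8.20 and 7.49 in PC9. The coverage gave the lines in the same order as the TPM, which rests on the same reads, so it is no separate measure. The other 4 genes of the SFRP family added little: the family summed to 5.43 ± 0.718 TPM in PC9-AMG, 50.5 ± 7.08 TPM in PC9-BrM4 and 12.6 ± 0.0827 TPM in PC9 (SD), and 3 of its 5 genes were listed at 0 in every library. The 20 tested genes nearest to SFRP1 on the chromosome had a median log2 difference of 0.05 between PC9-AMG and PC9, -0.17 between PC9-AMG and PC9-BrM4, and 0.10 between PC9-BrM4 and PC9, with single values from -1.21 to 0.85 in the last comparison. The medians over all tested genes were -0.05, -0.13 and 0.09, close to those of the neighbours.

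**Figure D1:**
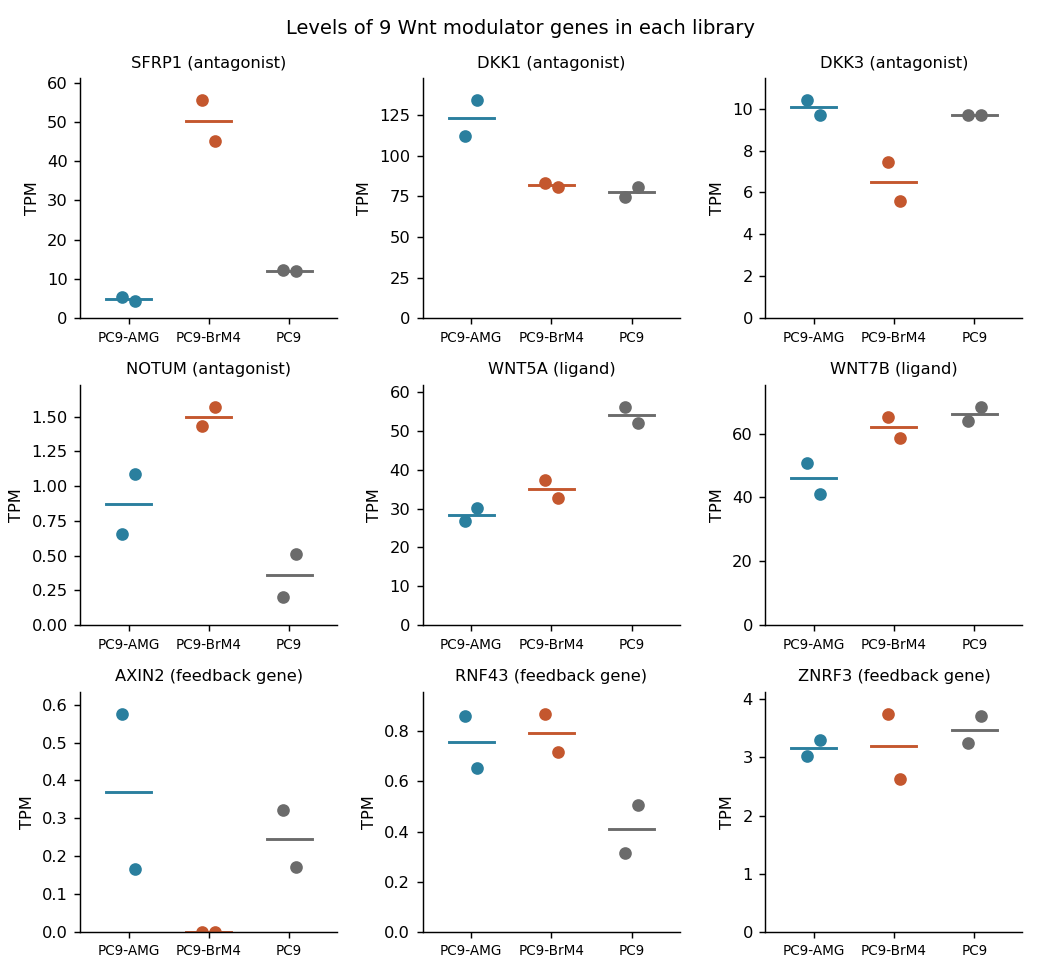
Level of each of the 9 genes in TPM (y axis, linear, a scale of its own per panel) in PC9-AMG, PC9-BrM4 and PC9 (x axis). Points are libraries and horizontal lines are the means of 2 libraries. SFRP1 lies at 45.1 to 55.5 TPM in PC9-BrM4 and at 4.35 to 12.3 TPM in the other lines, WNT5A is highest in PC9, and the points of ZNRF3 are mixed between the lines.

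DKK1 was the most abundant of the 9 genes per transcript length in each of the 3 lines. It encodes a secreted protein that binds LRP5 and LRP6 and so blocks the receptor complex, and it lies at chr10:52314281-52317657 (hg38, plus strand, 4 exons). RefSeq (GRCh38.p14) windows from 250 bases before to 50 bases after a start were read here for 3 of the 9 genes, DKK1, WNT5A and RNF43. The set of windows used here gave none for DKK3, NOTUM, WNT7B, AXIN2 and ZNRF3, and SFRP1 was left out of that search. Whether RefSeq itself holds windows for these genes was not tested. The DKK1 window is shown because it holds the letters CTTTG followed by a pair of bases that are each A or T, the core bound by TCF/LEF factors, searched on both strands. Capitals mark these 2 matches, which begin 95 and 76 bases before the start, and the letters TATAAA, searched on the gene's strand, which begin 30 bases before it.
DKK1, chr10:52314031-52314330, plus strand: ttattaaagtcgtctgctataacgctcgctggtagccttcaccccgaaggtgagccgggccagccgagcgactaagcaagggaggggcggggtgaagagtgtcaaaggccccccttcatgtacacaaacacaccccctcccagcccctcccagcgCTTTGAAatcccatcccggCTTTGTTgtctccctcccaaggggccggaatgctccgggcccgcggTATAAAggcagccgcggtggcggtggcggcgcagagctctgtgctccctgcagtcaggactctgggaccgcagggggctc
The core was found in 13.8% and TATAAA in 7.33% of 35116 RefSeq windows of the same 300 bases. Both are matches of letters only, and no data on binding were used here.

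DKK1 was at 112 and 134 TPM in PC9-AMG, at 83.2 and 80.8 TPM in PC9-BrM4 and at 74.8 and 80.5 TPM in PC9. The PC9-AMG libraries were the highest, and the libraries of PC9-BrM4 and PC9 came within 1 TPM of each other without overlapping. The mean level in PC9-AMG was 1.59 times that in PC9 and 1.5 times that in PC9-BrM4, which are log2 differences of 0.65 and 0.57. PC9-BrM4 differed from PC9 by 0.08, and by -0.02 to 0.13 across the alternatives, so the sign of that difference was not stable. An antisense gene, PRKG1-AS1, overlaps DKK1 in the annotation, with the same limit as at SFRP1.

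DKK3 is a family member that differs from DKK1 in not binding LRP6, and lies at chr11:11962996-12009370 (hg38, minus strand). It was at 10.4 and 9.71 TPM in PC9-AMG, at 7.44 and 5.60 TPM in PC9-BrM4 and at 9.71 and 9.71 TPM in PC9. The PC9-BrM4 libraries were the lowest, and PC9-AMG and PC9 met at nearly the same value. The log2 differences were 0.04 for PC9-AMG against PC9, 0.57 for PC9-AMG against PC9-BrM4 and -0.52 for PC9-BrM4 against PC9. Against PC9, the PC9-BrM4 difference was -0.70 without PC9-BrM4 library 1 and -0.34 without library 2. The other 2 genes of the DKK family were listed at 0 in every library. DKK1 and DKK3 together therefore made up the family's sums of 133 ± 14.8 TPM in PC9-AMG, 88.5 ± 3.01 TPM in PC9-BrM4 and 87.3 ± 4.04 TPM in PC9 (SD).

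NOTUM encodes a secreted enzyme that removes the lipid from Wnt ligands and so inactivates them (chr17:81952507-81961181, hg38, minus strand). Its level was low: 0.656 and 1.09 TPM in PC9-AMG, 1.43 and 1.57 TPM in PC9-BrM4, and 0.201 and 0.514 TPM in PC9. The lines did not overlap and stood in the order PC9-BrM4, PC9-AMG, PC9, but NOTUM reached 1 TPM only in the PC9-BrM4 libraries and in 1 PC9-AMG library. The log2 differences were 0.46 for PC9-AMG against PC9, -0.43 for PC9-AMG against PC9-BrM4 and 0.89 for PC9-BrM4 against PC9, where the mean TPM was 4.2 times as high, close to the 4.14 times of SFRP1. At these levels the pseudocount weighs heavily, and the last difference ranged from 0.50 to 1.90 across the alternatives. The coverage behind these values was below 1 read per base in every library. The 20 tested genes nearest to NOTUM had median log2 differences of 0.40 for PC9-AMG against PC9, 0.16 for PC9-AMG against PC9-BrM4 and 0.17 for PC9-BrM4 against PC9. In the first comparison NOTUM, at 0.46, lay near the median of its neighbours at the pseudocount used. Its own difference there ranged from 0.27 to 1.14 across the alternatives, and its mean TPM in PC9-AMG was 2.44 times that in PC9.

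**Figure D2:**
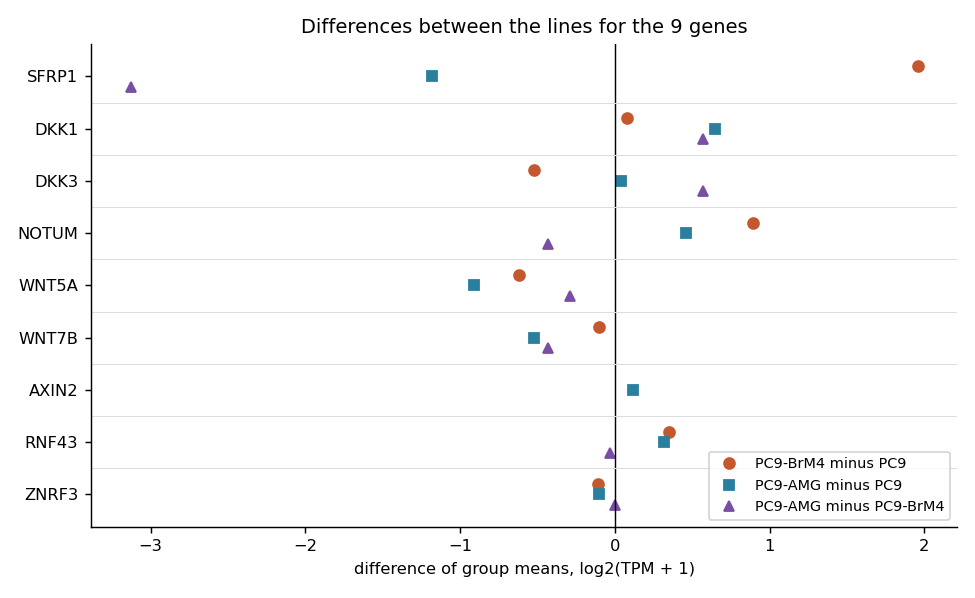
Difference in mean log2(TPM + 1) (x axis) for the 9 genes (y axis) with squares for PC9-AMG minus PC9, triangles for PC9-AMG minus PC9-BrM4 and circles for PC9-BrM4 minus PC9. SFRP1 stands at -1.18, -3.13 and 1.96, and no other gene lies beyond 1 in size. AXIN2 has no point for PC9-BrM4, where it was listed at 0.

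The ligand WNT5A, which acts mainly without β-catenin and can bind ROR1, was highest in PC9. It has 5 exons and lies at chr3:55465715-55487642 (hg38, minus strand). The RefSeq table gives windows for 2 starts of the gene, which are shown for comparison with DKK1 because neither holds the TCF/LEF core or TATAAA.
WNT5A, first start, chr3:55487257-55487556, minus strand: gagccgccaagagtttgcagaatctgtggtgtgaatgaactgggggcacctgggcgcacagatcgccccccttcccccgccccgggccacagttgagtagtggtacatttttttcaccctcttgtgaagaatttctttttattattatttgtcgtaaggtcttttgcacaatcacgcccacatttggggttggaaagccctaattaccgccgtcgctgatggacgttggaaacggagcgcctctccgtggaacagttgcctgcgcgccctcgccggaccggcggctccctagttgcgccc
WNT5A, second start, chr3:55481349-55481648, minus strand: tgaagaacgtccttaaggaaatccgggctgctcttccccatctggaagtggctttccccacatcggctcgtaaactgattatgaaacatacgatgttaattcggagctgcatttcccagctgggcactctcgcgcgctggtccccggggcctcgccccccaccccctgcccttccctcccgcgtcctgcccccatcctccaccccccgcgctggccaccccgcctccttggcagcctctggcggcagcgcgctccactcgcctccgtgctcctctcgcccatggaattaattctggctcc
The absence of these letters from 300 bases says nothing of binding elsewhere, and the values per gene do not tell the 2 starts apart. The 2 windows of RNF43 held neither motif and are not shown.

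WNT5A was at 26.8 and 30.1 TPM in PC9-AMG, at 37.4 and 32.7 TPM in PC9-BrM4 and at 56.2 and 52.2 TPM in PC9. The PC9 libraries were the highest and the PC9-AMG libraries the lowest, with no overlap. The mean level in PC9-AMG was 0.524 times that in PC9 and 0.812 times that in PC9-BrM4, and the mean in PC9-BrM4 was 0.646 times that in PC9. The log2 differences were -0.91, -0.29 and -0.62, and each kept its sign across the alternatives, although the second was -0.12 with median centring. WNT5A and SFRP1 thus stood in a different order over the lines: SFRP1 was highest in PC9-BrM4 and WNT5A in PC9.

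WNT7B, a ligand that acts through β-catenin in lung development and lies at chr22:45920366-45977128 (hg38, minus strand), was at 50.7 and 41.2 TPM in PC9-AMG, at 65.1 and 58.7 TPM in PC9-BrM4 and at 64.0 and 68.3 TPM in PC9. PC9-AMG was the lowest, and the libraries of PC9-BrM4 and PC9 overlapped. The log2 differences were -0.52 for PC9-AMG against PC9, -0.43 for PC9-AMG against PC9-BrM4 and -0.10 for PC9-BrM4 against PC9. Without PC9-AMG library 2 the second was -0.28, and with PC9-BrM4 library 2 left out the third was -0.02.

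WNT5A and WNT7B were read within the whole set of 19 Wnt ligand genes, of which 10 reached 1 TPM in at least 2 libraries and 4 were listed at 0 in every library. The ligands summed to 191 and 174 TPM in PC9-AMG, 279 and 261 TPM in PC9-BrM4, and 235 and 234 TPM in PC9. WNT5A made up 15.6 ± 2.27% of this sum in PC9-AMG, 13.0 ± 0.607% in PC9-BrM4 and 23.1 ± 1.16% in PC9 (SD), and its share was lower in each PC9-AMG and PC9-BrM4 library than in either PC9 library. The share of WNT7B was 25.1 ± 2.1% in PC9-AMG, 23.0 ± 0.605% in PC9-BrM4 and 28.2 ± 1.36% in PC9. WNT7A took 16.7 ± 0.867% in PC9-AMG, 13.2 ± 0.987% in PC9-BrM4 and 9.56 ± 0.103% in PC9. A share can move because another ligand moves, so the shares are read beside the levels.

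**Figure D3:**
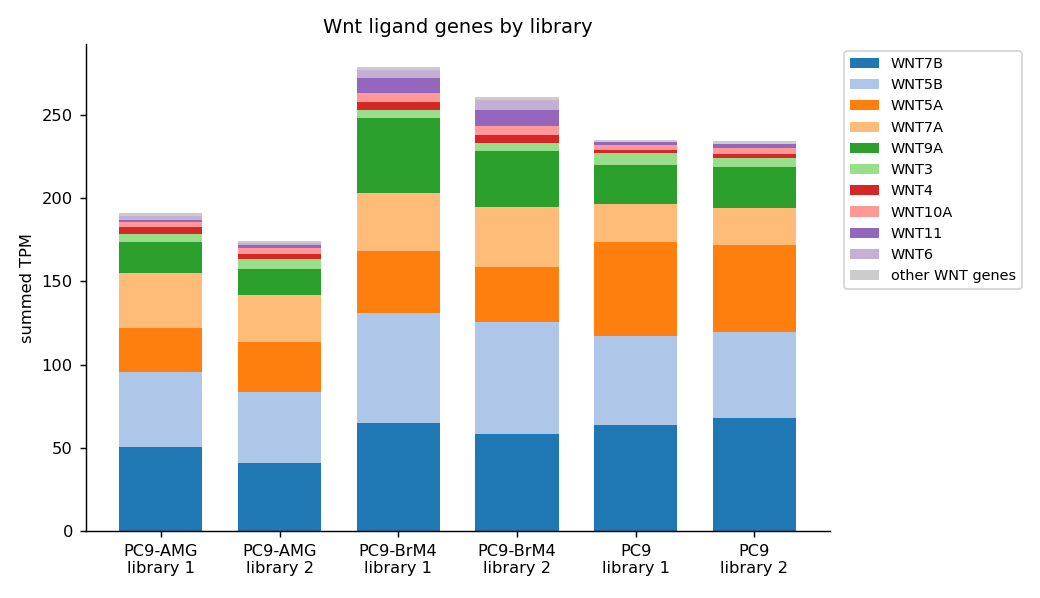
Summed level of the Wnt ligand genes in TPM (y axis, from 0) in each library (x axis), stacked by ligand. The sums are 191 and 174 TPM in PC9-AMG, 279 and 261 TPM in PC9-BrM4, and 235 and 234 TPM in PC9, and the WNT5A segment is 52.2 to 56.2 TPM high in PC9 and at most 37.4 TPM high in the other lines.

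Of the feedback genes, AXIN2, a scaffold of the complex that degrades β-catenin and a widely used reporter of β-catenin activity, lies at chr17:65528565-65561622 (hg38, minus strand) and never reached 1 TPM. It was at 0.576 and 0.165 TPM in PC9-AMG, was listed at 0 in both PC9-BrM4 libraries, and was at 0.322 and 0.171 TPM in PC9. The libraries of PC9-AMG and PC9 overlapped. Its coverage was at most 0.474 reads per base, against the 0.606 to 0.822 reads per base that 1 TPM amounted to in these libraries. No fold is given against the line listed at 0, and a gene annotated over AXIN2 adds to the uncertainty.

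RNF43 and ZNRF3 are related membrane E3 ubiquitin ligases that remove Frizzled receptors from the cell surface (chr17:58352500-58417582, minus strand, and chr22:28883767-29057488, plus strand, hg38). RNF43 was at 0.861 and 0.652 TPM in PC9-AMG, at 0.870 and 0.718 TPM in PC9-BrM4 and at 0.316 and 0.506 TPM in PC9. All of its values were under 1 TPM, PC9-AMG and PC9-BrM4 overlapped each other, and both lay above PC9. ZNRF3 was at 3.02 and 3.30 TPM in PC9-AMG, at 3.75 and 2.63 TPM in PC9-BrM4 and at 3.24 and 3.71 TPM in PC9. The coverage of ZNRF3 was 0.14 to 0.217 reads per base, under the 0.606 to 0.822 that 1 TPM amounted to in these libraries. Its TPM and coverage thus did not match, for a reason that was not tested, and its level is uncertain. Its libraries overlapped in all 3 comparisons, and its log2 differences were -0.10 for PC9-AMG against PC9, 0.00 for PC9-AMG against PC9-BrM4 and -0.11 for PC9-BrM4 against PC9. The last 2 ranged from -0.19 to 0.20 and from -0.30 to 0.09 across the alternatives, so their signs were not stable. Genes annotated over each of them (SUPT4H1 and TSPOAP1-AS1 over RNF43, ZNRF3-AS1 over ZNRF3) carry the same limit on strand.

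Ranked by level, DKK1 and then WNT7B led the 9 genes in every line. In PC9-AMG they were followed by WNT5A, DKK3, SFRP1, ZNRF3, NOTUM, RNF43 and AXIN2, and of these neighbours NOTUM and RNF43 overlapped. In PC9-BrM4 SFRP1 came next, ahead of WNT5A, DKK3, ZNRF3, NOTUM, RNF43 and AXIN2, and no neighbours overlapped. In PC9 the order was WNT5A, SFRP1, DKK3, ZNRF3, RNF43, NOTUM and AXIN2, and the libraries of the last 3 overlapped. SFRP1 therefore ranked above WNT5A in PC9-BrM4 and below it in PC9-AMG and PC9.

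Profiles over the 6 libraries were compared with that of SFRP1 by Euclidean distance between centred log2(TPM + 1) values. Clone, locus, non-coding, open-reading-frame, FAM and KIAA symbols and nearly all symbols with a hyphen were left out, so closer genes may be missing. Of the tested genes that remained, the closest 5 were MXRA8, DPP4, RARRES1, RRAD and ST6GALNAC5. MXRA8, a cell surface protein, had a distance of 0.776 and means of 1.22 TPM in PC9-AMG, 13.7 TPM in PC9-BrM4 and 2.18 TPM in PC9. DPP4, a surface peptidase, had a distance of 0.868 and means of 0.967 TPM in PC9-AMG, 11.8 TPM in PC9-BrM4 and 1.48 TPM in PC9. RARRES1 was the most abundant of the 5, with 47.9 TPM in PC9-AMG, 247 TPM in PC9-BrM4 and 59.0 TPM in PC9. ST6GALNAC5, a sialyltransferase studied in brain metastasis of breast cancer, was the farthest of the 5 at a distance of 1.18, with 0.200 TPM in PC9-AMG, 5.51 TPM in PC9-BrM4 and 0.411 TPM in PC9. Like SFRP1, all 5 had their highest mean in PC9-BrM4, which choosing them by this likeness implies, and their lowest in PC9-AMG. The likeness was weaker in PC9-AMG against PC9, with log2 differences of -0.55 to -0.18, against -1.18 for SFRP1. In that comparison the libraries of RRAD and ST6GALNAC5 overlapped.

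**Figure D4:**
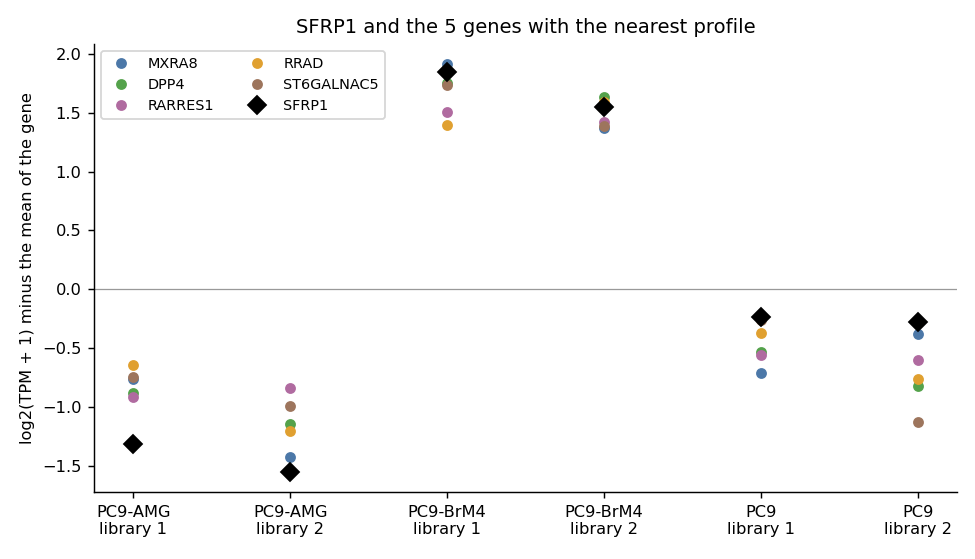
Centred log2(TPM + 1) (y axis) of SFRP1 and the 5 nearest genes among the symbols kept in each library (x axis). SFRP1 and MXRA8, DPP4, RARRES1, RRAD and ST6GALNAC5 peak in the PC9-BrM4 libraries, as the choice by distance implies, and SFRP1 is lower in both PC9-AMG libraries than in both PC9 libraries.

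To place the 9 genes in their pathway, 115 other Wnt pathway genes were counted, of which 76 reached 1 TPM in at least 2 libraries and 25 were listed at 0 in every library. A gene is called higher or lower at an adjusted p under 0.05 in limma's moderated test with Benjamini-Hochberg adjustment over the 14627 tested genes. The comparisons share libraries and are not independent of each other. In PC9-AMG against PC9, 2 of the 76 genes were higher (2.63%, against 3.67% of all tested genes) and 5 were lower (6.58%, against 3.82%), and the median log2 difference was -0.16 in the list and -0.05 over all genes. In PC9-AMG against PC9-BrM4, 3 were higher (3.95%, against 6.31%) and 20 lower (26.3%, against 12.3%), with medians of -0.24 and -0.13. In PC9-BrM4 against PC9, 14 were higher (18.4%, against 9.89%) and 4 lower (5.26%, against 6.45%), with medians of 0.11 and 0.09.

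The split of these calls moved with the scaling. With the libraries centred on their medians, 5 were higher and 3 lower in PC9-AMG against PC9, 5 higher and 14 lower in PC9-AMG against PC9-BrM4, and 11 higher and 7 lower in PC9-BrM4 against PC9. Over all 14627 tested genes, centring gave 685 higher and 436 lower, 1606 and 900, and 917 and 1293 in these comparisons. The counts also fell with some libraries of the compared lines left out, as did those over all tested genes with the same libraries left out. Each such fit leaves 1 library in a line. A loss of power and calls that rest on a single library therefore cannot be told apart. In PC9-AMG against PC9 just 1 gene was called when any single PC9-AMG or PC9 library was left out. In PC9-AMG against PC9-BrM4, 9 were called without PC9-BrM4 library 1 and 13 without PC9-AMG library 2. In PC9-BrM4 against PC9, 11 were called when PC9-BrM4 library 1 was left out and 9 when either PC9 library was.

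Among ligands and secretion genes other than WNT5A and WNT7B, 6 of the 10 tested were called higher in PC9-BrM4 than in PC9 (60%, against 9.89% of all tested genes) and 1, WLS, lower (10%, against 6.45%). WNT6, a ligand that acts through β-catenin, was at 2.14 and 1.53 TPM in PC9-AMG, 5.06 and 6.26 TPM in PC9-BrM4 and 0.217 and 0.342 TPM in PC9. It was higher in PC9-BrM4 than in PC9 by 2.38 log2 units (adjusted p = 0.000163), and higher in PC9-AMG than in PC9 by 1.14 (adjusted p = 0.0216). That second call was lost without any 1 of the PC9-AMG or PC9 libraries, with adjusted p up to 0.125 without PC9 library 1. WNT6 passed the filter on low values only through PC9-AMG and PC9-BrM4, so it had to stand above PC9, and its size moved with the scale: 3.94 with a pseudocount of 0.1 and 1.58 on FPKM for PC9-BrM4 against PC9, and 2.35 and 0.70 for PC9-AMG against PC9. WNT11, known for its part in planar cell polarity, was at 1.27 and 1.53 TPM in PC9-AMG, 8.57 and 9.21 TPM in PC9-BrM4 and 1.80 and 2.26 TPM in PC9. It was higher in PC9-BrM4 than in PC9 by 1.71 (adjusted p = 0.000449) and lower in PC9-AMG than in PC9-BrM4 by 2.04 log2 units (difference -2.04, adjusted p = 0.000189). The other 4 higher ligands of PC9-BrM4 against PC9 were WNT4 (0.93, adjusted p = 0.0113), WNT9A (0.67, 0.0198), WNT7A (0.64, 0.00803) and WNT5B (0.34, 0.0487), of which the last 3 were named after their values were seen. Each of these calls was lost without PC9 library 1 and, apart from WNT4, without PC9 library 2, with adjusted p up to 0.0992 for WNT4, 0.125 for WNT9A, 0.0789 for WNT7A and 0.355 for WNT5B.

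WLS, the carrier that brings lipid-modified Wnt ligands to the cell surface, averaged 31.1 ± 1.12 TPM in PC9-AMG, 15.8 ± 0.993 TPM in PC9-BrM4 and 27.8 ± 1.03 TPM in PC9 (SD). WLS was lower in PC9-BrM4 than in PC9 (-0.78, adjusted p = 0.00255) and higher in PC9-AMG than in PC9-BrM4 (0.94, adjusted p = 0.000961). PORCN, the enzyme that attaches the lipid, averaged 18.6 TPM in PC9-AMG, 22.4 TPM in PC9-BrM4 and 25.5 TPM in PC9 and was called in no comparison.

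Of 17 other extracellular antagonist genes, 11 were listed at 0 in every library and 3 were tested. KREMEN2, a co-receptor that DKK1 uses to clear LRP6, was called higher in PC9-BrM4 (21.3 ± 2.66 TPM) than in PC9 (14.2 ± 2.54 TPM, SD), at 0.56 log2 units and an adjusted p of 0.0463. That call was lost under 13 of the 17 alternatives, with adjusted p up to 0.369 without PC9 library 1. KREMEN1 and TPBG, which also restrain signalling at the receptor, were lower in PC9-AMG than in PC9-BrM4 (-0.62, adjusted p = 0.0381, and -0.51, adjusted p = 0.00458). The KREMEN1 call was lost under 9 alternatives, with adjusted p up to 0.145 without PC9-BrM4 library 1, and the TPBG call with median centring alone (0.0663).

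**Figure D5:**
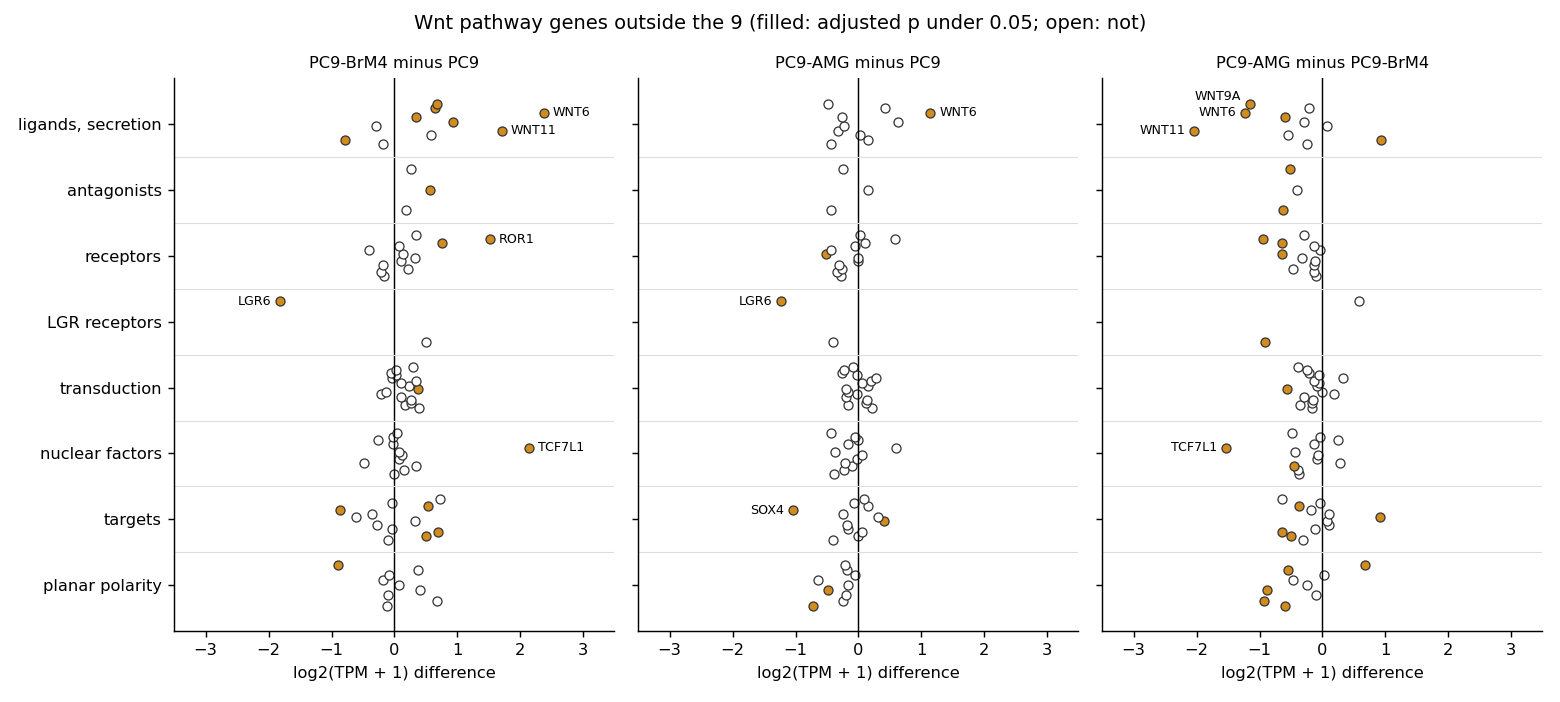
Log2 difference (x axis) of the tested Wnt pathway genes outside the 9, by role (y axis), with PC9-BrM4 minus PC9 in the left panel, PC9-AMG minus PC9 in the middle and PC9-AMG minus PC9-BrM4 on the right. Each point is a gene, filled in colour where the adjusted p was under 0.05 and open otherwise. Coloured points number 18, 7 and 23 of 76, and WNT6 at 2.38 and TCF7L1 at 2.14 lie farthest to the right in the left panel.

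The Frizzled genes, 10 in all, summed to 78.2 ± 1.83 TPM in PC9-AMG, 100 ± 11.5 TPM in PC9-BrM4 and 91.5 ± 0.547 TPM in PC9 (SD). FZD7 was lower in PC9-AMG than in PC9 (-0.51, adjusted p = 0.0439) and than in PC9-BrM4 (-0.65, adjusted p = 0.00862). The calls were lost under 10 and 1 of the alternatives, with adjusted p up to 0.378 when PC9 library 2 was left out and up to 0.0552 for PC9-BrM4 library 1. ROR1, a receptor of WNT5A, was at 7.05 and 7.86 TPM in PC9-AMG, 17.2 and 13.3 TPM in PC9-BrM4 and 5.06 and 4.28 TPM in PC9. It was higher in PC9-BrM4 than in PC9 (1.52, adjusted p = 0.000463), a call kept under every alternative. It was lower in PC9-AMG than in PC9-BrM4 (-0.94, adjusted p = 0.00642), which was lost under 2 alternatives, with adjusted p up to 0.0563 without PC9-BrM4 library 1. PTK7, a co-receptor of the planar polarity arm, averaged 58.5 ± 12.4 TPM in PC9-AMG, 91.2 ± 4.81 TPM in PC9-BrM4 and 53.9 ± 4.69 TPM in PC9. It was higher in PC9-BrM4 than in PC9 (0.75, adjusted p = 0.00749), a call lost under 2 alternatives with adjusted p up to 0.0804 on leaving out PC9-BrM4 library 1. LRP6 and FZD6, at 11.8 and 36.2 TPM in PC9-AMG, 13.2 and 45.8 TPM in PC9-BrM4 and 12.3 and 36.0 TPM in PC9, were called in no comparison.

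All 4 R-spondin genes, whose proteins remove RNF43 and ZNRF3 from the membrane through LGR receptors, were listed at 0 in every library, as was LGR5. LGR6 was at 2.82 and 1.43 TPM in PC9-AMG, 1.54 and 0.622 TPM in PC9-BrM4 and 6.51 and 5.80 TPM in PC9. It was lower in PC9-BrM4 than in PC9 (-1.82, adjusted p = 0.00276) and lower in PC9-AMG than in PC9 (-1.23, adjusted p = 0.0345). The PC9-AMG call was lost under 6 alternatives, with adjusted p up to 0.178 without PC9-AMG library 2. LGR4 averaged 15.3 ± 2.61 TPM in PC9-AMG, 29.8 ± 5.04 TPM in PC9-BrM4 and 20.6 ± 3.39 TPM in PC9, and was lower in PC9-AMG than in PC9-BrM4 (-0.92, adjusted p = 0.00677). That call was lost under 2 alternatives, with adjusted p up to 0.085 without PC9-BrM4 library 1.

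Downstream of the receptors, 1 of 16 tested transduction genes was called, CTNNB1, which encodes β-catenin. In PC9-BrM4 against PC9 that is 6.25% called higher, under the 9.89% of all tested genes. In PC9-AMG against PC9-BrM4 it is 6.25% called lower, under the 12.3% of all tested genes. CTNNB1 averaged 157 ± 12.8 TPM in PC9-AMG, 232 ± 25.9 TPM in PC9-BrM4 and 179 ± 6.74 TPM in PC9 (SD). CTNNB1 was higher in PC9-BrM4 than in PC9 (0.37, adjusted p = 0.0392) and lower in PC9-AMG than in PC9-BrM4 (-0.56, adjusted p = 0.00621). The first call was lost under 8 alternatives, median centring among them, with adjusted p up to 0.263 without PC9 library 2, and the second without PC9-BrM4 library 1 (0.0631). APC, a scaffold of the complex that degrades β-catenin, averaged 4.03 TPM in PC9-AMG, 5.46 TPM in PC9-BrM4 and 4.67 TPM in PC9 and was not called.

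TCF7L1, a TCF factor known mainly as a repressor, was at 2.58 and 1.58 TPM in PC9-AMG, 8.70 and 6.98 TPM in PC9-BrM4 and 1.17 and 0.841 TPM in PC9. It was higher in PC9-BrM4 than in PC9 (2.14, adjusted p = 0.000316) and lower in PC9-AMG than in PC9-BrM4 (-1.53, adjusted p = 0.00233), and neither call was lost under any of the 17 alternatives. The other TCF/LEF genes named here, LEF1 and TCF7L2, were called in no comparison. LEF1 averaged 1.25 TPM in PC9-AMG, 0.853 TPM in PC9-BrM4 and 1.62 TPM in PC9, and TCF7L2 averaged 5.69, 6.34 and 6.49 TPM in the same lines.

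Target and feedback genes did not all stand in 1 order. CD44, an adhesion molecule, averaged 349 ± 4.82 TPM in PC9-AMG, 543 ± 43.4 TPM in PC9-BrM4 and 335 ± 12.2 TPM in PC9, and was higher in PC9-BrM4 than in PC9 (0.69, adjusted p = 0.000599) under every alternative. CCND1 (cyclin D1) was higher in PC9-BrM4, at 139 ± 17.8 TPM, than in PC9, at 97.2 ± 0.555 TPM (0.50, adjusted p = 0.0132), a call lost under 3 alternatives, with adjusted p up to 0.102 without PC9 library 2. SOX9, a transcription factor of lung progenitors, averaged 45.1 ± 1.13 TPM in PC9-AMG, 58.7 ± 2.64 TPM in PC9-BrM4 and 40.2 ± 2.76 TPM in PC9, and was higher in PC9-BrM4 than in PC9 (0.54, adjusted p = 0.00994), a call lost under 3 alternatives with adjusted p up to 0.145 for PC9 library 2. SOX4, of the same family, was lower than in PC9 in both other lines (-1.04, adjusted p = 0.00194, in PC9-AMG, and -0.86, adjusted p = 0.000984, in PC9-BrM4), also under every alternative. MYC was called higher in PC9-AMG than in PC9 (0.41, adjusted p = 0.042), which was lost under 8 alternatives, with adjusted p up to 0.305 without PC9 library 2. Of 2 further target genes, NKD1, a feedback inhibitor, averaged 0.255 ± 0.131 TPM in PC9-AMG, 0.911 ± 0.0393 TPM in PC9-BrM4 and 0.205 ± 0.0455 TPM in PC9 and was below the filter, and SP5 averaged 2.06, 2.08 and 2.19 TPM in the same lines and was not called. NKD2, a relative of NKD1, averaged 1.86 ± 0.0339 TPM in PC9-AMG, 0.511 ± 0.142 TPM in PC9-BrM4 and 1.31 ± 0.0813 TPM in PC9, and was higher in PC9-AMG than in PC9-BrM4 (0.92, adjusted p = 0.0246). It passed the filter only through PC9-AMG and PC9, and the call was lost under 3 alternatives with adjusted p up to 0.101 for PC9-BrM4 library 1. AXIN2 and NKD1 thus had unlike orders over the lines, both at levels under 1 TPM.

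Of 9 tested planar polarity genes, the arm of the pathway that WNT5A and WNT11 are known for, 2 were called lower in PC9-AMG than in PC9 (22.2%, against 3.82% of all tested genes). In PC9-AMG against PC9-BrM4, 4 were lower (44.4%, against 12.3%), VANGL1, CELSR1, CELSR2 and DAAM1, and 1, VANGL2, was higher (11.1%, against 6.31%). In PC9-BrM4 against PC9, 1 was lower (11.1%, against 6.45%). Of the calls in PC9-AMG against PC9-BrM4, those of VANGL1, CELSR1, CELSR2 and VANGL2 were each lost under at least 2 alternatives, with adjusted p up to 0.202, 0.249 and 0.0881 when PC9-BrM4 library 1 was left out, and up to 0.149 for VANGL2 without PC9-AMG library 1. VANGL2 was lower in PC9-BrM4 than in PC9 (-0.89, adjusted p = 0.0101), a call lost under 3 alternatives, with adjusted p up to 0.0846 without PC9 library 2. DAAM1 averaged 22.9 ± 0.401 TPM in PC9-AMG, 43.0 ± 5.29 TPM in PC9-BrM4 and 32.2 ± 0.152 TPM in PC9 (SD). It was lower in PC9-AMG than in PC9-BrM4 (-0.88, adjusted p = 0.00151) under every alternative, and lower than in PC9 (-0.48, adjusted p = 0.0473), a call lost under 7 alternatives with adjusted p up to 0.298 without PC9 library 2. CELSR1 was the other gene called lower in PC9-AMG than in PC9 (-0.72, adjusted p = 0.0362), and its call was lost under 5 alternatives with adjusted p up to 0.201 without PC9 library 2.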

How the data were processed

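Polyadenylated RNA was sequenced from stranded libraries, per the labels' protocols. The deposited tables hold TPM, FPKM and read coverage per gene, made by the authors. The submitters' processing notes name HISAT2 2.1.0, StringTie 1.3.4d and hg38; the annotation, read length, filters and use of strand are not given in the sources used here. The TPM of a gene listed on several rows was summed. FPKM served as an alternative, and the coverage signal as deposited was read for the members only. No counts were used, so depth is unknown and no counting interval is given.

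log2(TPM + 1) was fitted over all 6 libraries with limma 3.58.1 in R 4.3.3 (trend, two-sided, Benjamini-Hochberg over 14627 genes at 1 TPM or more in at least 2 libraries). The fit has 3 residual and 6.81 prior degrees of freedom. The code (also Python 3.11.15) was tested on simulated data. The members and gene lists were chosen with earlier results of these data known. Named genes were the 9 members, per list and comparison up to 3 called pathway genes with the largest differences, and a fixed set of pathway genes (CTNNB1, APC, LRP6, FZD6, TCF7L2, LEF1, LGR4, LGR5, MYC, CCND1, CD44, NKD1, SP5, WLS and PORCN). The 5 profiles nearest to SFRP1 among the symbols kept, and cell type markers, were named too. The 17 alternatives varied the pseudocount, filter, unit, scaling, libraries fitted and replicate block, and left out each library.

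Positions of genes are those in the deposited tables, exons and overlapping genes come from GENCODE 29, and promoter windows from RefSeq on GRCh38.p14. Windows were read for DKK1, WNT5A and RNF43 only. No window of SFRP1 was read, which says nothing of what RefSeq holds for that gene.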

Additional observations from a re-analysis of the deposited data

How the results depend on the processing

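Precision is limited by 2 libraries per line. Leaving out 1 library at a time gave 131 to 1152 called genes in PC9-AMG against PC9 (1096 with all libraries), 1024 to 2886 in PC9-AMG against PC9-BrM4 (2720) and 892 to 2383 in PC9-BrM4 against PC9 (2389). Called Wnt pathway genes outside the 9 then numbered 1 to 6 (7 with all libraries), 9 to 23 (23) and 9 to 21 (18) in these comparisons. Without PC9 library 2 the first and last comparisons were at their lowest, 131 and 892, and without PC9-BrM4 library 1 the middle one, 1024. Without the filter on low values, 250 genes were called in PC9-AMG against PC9, 1 of them among the Wnt pathway genes, and 1799 in PC9-AMG against PC9-BrM4. Median centring gave 685 higher and 436 lower genes in PC9-AMG against PC9, 1606 and 900 in PC9-AMG against PC9-BrM4, and 917 and 1293 in PC9-BrM4 against PC9, where the uncentred values gave 537 and 559, 923 and 1797, and 1446 and 943. The cause of these shifts was not tested. Of the Wnt pathway genes called, 1 of 7, 7 of 23 and 8 of 18 kept their call under each of the 17 alternatives, and none changed direction. Whether libraries with the same number were prepared together is not stated. The differences between libraries 1 and 2 correlated at -0.0388 to 0.0292 between lines over 14627 genes, which cannot decide this. With a replicate block, 1298, 2905 and 2483 genes were called, among them 7, 23 and 19 Wnt pathway genes.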
